A study of Danio rerio with 10 samples.

Results

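Livers of zebrafish siblings that were sorted as lacking the nAtf6 transgene were compared between 5 dpf (days post fertilization) and 78 hpf (hours post fertilization). Of the 10 liver libraries of the series, 5 were used: the 3 sibling libraries at 5 dpf and the 2 libraries whose deposited names are Sibs at 78 hpf. nAtf6 is the nuclear, active fragment of Atf6, a transcription factor of the unfolded protein response, and the Tg(fabp10:nAtf6-mcherry; cmlc2:EGFP)-C line drives it with a hepatocyte promoter and marks carriers by EGFP in the heart. Each 5 dpf library came from 25 pooled livers of wild-type larvae without a green heart, taken from outcrosses of that line to WT TAB 14 fish on 3 days and dissected at about 9 o'clock in the morning. Each 78 hpf library came from 20 pooled livers of larvae without a green heart, dissected at about 15 o'clock. The 78 hpf parents carried Tg(fabp10a:CAAX-EGFP), a membrane EGFP in hepatocytes, and larvae were chosen for a green liver, so the 78 hpf siblings carried that marker while the 5 dpf siblings are given as wild type. The text on the whole series instead names the marker cross for both ages.

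By 78 hpf the zebrafish liver is a small bud in which hepatocytes have differentiated and cells still divide, and over the following days it grows, takes over the metabolism of the larva while the yolk is used up, and secretes the proteins of the blood plasma. Hepatocytes make apolipoproteins, clotting and complement factors, and carriers of iron, retinol and lipid, and they hold the cytochrome P450 enzymes and the enzymes that break down amino acids and make bile acids. The comparison asks which of these programmes differed in level between the 2 ages in livers without the transgene.

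Several things differed together with age and cannot be told apart from it: RNA selection, depth, hour of dissection and cross. PolyA RNA was selected at 78 hpf, and ribosomal RNA was removed at 5 dpf according to the protocol, although the 5 dpf labels name polyA RNA. Each 5 dpf library held 20081133 to 22293405 counts on genes and the 78 hpf libraries 4868321 and 5733330, so that 3 counts, the most that a count of 0 allows, are 0.135 to 0.149 CPM (counts scaled to 1000000 counts on genes) at 5 dpf and 0.523 and 0.616 CPM at 78 hpf. Levels are given below as normalised CPM, scaled by TMM (a factor per library that assumes most genes do not change). The factors were 0.952, 0.627 and 0.949 for libraries 1, 2 and 3 of 5 dpf, and 1.201 and 1.469 at 78 hpf. Values are divided by them, so library 2 of 5 dpf stands higher against libraries 1 and 3 in normalised CPM than in CPM. With that scaling the median log2 fold change over the 20126 genes tested was 0.15, against −0.51 with library size alone. For that reason, and because of the confounds, large shifts carry the description, and smaller ones are given with the value under the other scaling where it turns.

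A few very abundant RNAs filled much of the 5 dpf libraries. rn7sl1, the RNA of the signal recognition particle, took 6.89%, 8.16% and 8.05% of the counts at 5 dpf, against 0.0186% and 0.0112% at 78 hpf. ENSDARG00000080337, a gene without a name in the tables, took 14.97%, 16.7% and 12.4% at 5 dpf, against 0.168% and 0.240% at 78 hpf. rn7sk, a nuclear RNA that regulates transcription elongation, had 3031, 4830 and 3189 normalised CPM at 5 dpf, against 5.67 and 4.76 at 78 hpf. The list of replication-dependent histones and other RNAs without a polyA tail held 75 identifiers, of which 33 passed the filter on low counts. Of these 33, 27 were higher and 1 lower at 5 dpf, against 17.9% and 16.1% of all genes. In a fit of protein-coding genes only, 7 members were tested, with 3 higher and 1 lower. The median log2 fold change of the 33 was 8.23, or 5.32 with members without a count at 78 hpf at their lower bounds. Those members, 12 of the 33, passed the filter through the 5 dpf libraries alone, so their direction was fixed in advance. SNORA23, a small nucleolar RNA, was one of these and was at least 142-fold higher at 5 dpf. In the other direction, zgc:158463 had 478, 548 and 315 normalised CPM at 5 dpf, against 10703 and 9074 at 78 hpf, and si:dkey-153m14.1 had 241, 115 and 89.3, against 12673 and 10476. The groups did not overlap for any of these genes. Protein-coding genes took 68.5% to 72.4% of the counts at 5 dpf and 92.8% and 93.0% at 78 hpf.

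**Figure D1:**
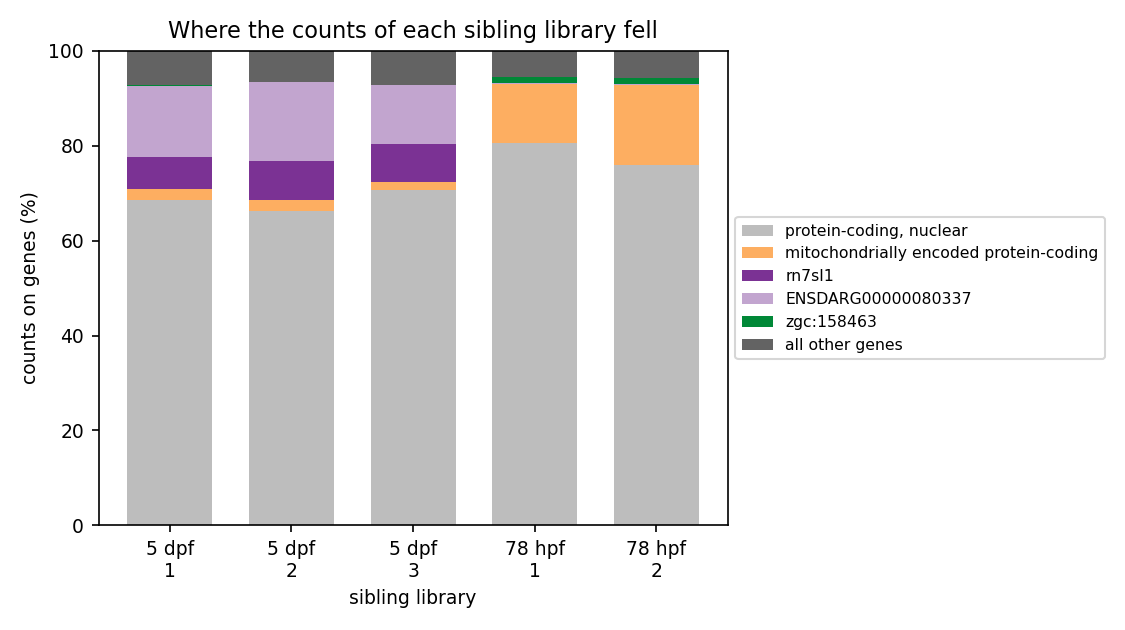
Share of the counts on genes (%, stacked to 100) in each sibling library, the 3 libraries of 5 dpf to the left of the 2 of 78 hpf. rn7sl1 and ENSDARG00000080337 fill much of each 5 dpf library and little of a 78 hpf library, where mitochondrially encoded genes take 12.5% and 16.8%.

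The labels of the 78 hpf libraries conflict: the titles call the libraries named Sibs transgenic and the libraries named Natf6 sibling, while 1 genotype entry is given to all 4 of them. The treatment text follows the names, and these were used. atf6 had 100.5, 73.4 and 86.1 CPM in 5 dpf siblings and 80.8 and 48.5 CPM in the 78 hpf libraries named Sibs. In the 78 hpf libraries titled sibling it had 189 and 326 CPM, and in the 5 dpf nAtf6 TG livers 447, 559 and 552 CPM. HSPA5, the chaperone BiP of the endoplasmic reticulum and a target of Atf6, had 414, 185 and 354 CPM in 5 dpf siblings and 2066 and 1287 CPM in the libraries named Sibs, against 11374 and 14584 CPM in those titled sibling. The 5 dpf nAtf6 TG livers had 3983, 7976 and 8298 CPM of HSPA5. By both genes the libraries titled sibling sat above all sibling libraries of either age, as the nAtf6 TG livers did, which goes against their titles. Beside the counts of most lists, those with the titled libraries in place of the ones named Sibs are given.

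By their markers the libraries held liver, with RNA of neighbouring tissues in amounts that differed between libraries. All 20 hepatocyte markers were detected in every sibling library, and together they took 8.56%, 11.0% and 9.73% of the counts at 5 dpf, against 6.99% and 3.01% at 78 hpf. The 21 identifiers of the exocrine pancreas list summed to 5286, 1676 and 5808 CPM at 5 dpf, against 100.5 and 52.6 CPM at 78 hpf. The muscle list summed to 1592, 529 and 1681 CPM at 5 dpf, against 2087 and 11634 CPM at 78 hpf. The list of hepatic stellate cells and fibroblasts summed to 755, 327 and 793 CPM at 5 dpf, against 4049 and 8448 CPM at 78 hpf. Libraries 1 and 3 of 5 dpf resembled each other more than either resembled library 2 (Pearson r across genes 0.991, against 0.946 and 0.944), and library 2 was the lowest of the 3 in all of these other-tissue lists. The 2 libraries of 78 hpf had r = 0.918, and library 2 of 78 hpf had the highest muscle and the lowest hepatocyte sum of all 5. Their part in the results below was not tested. In pooled livers, fewer cells of a type and less RNA per cell cannot be told apart.

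**Figure D2:**
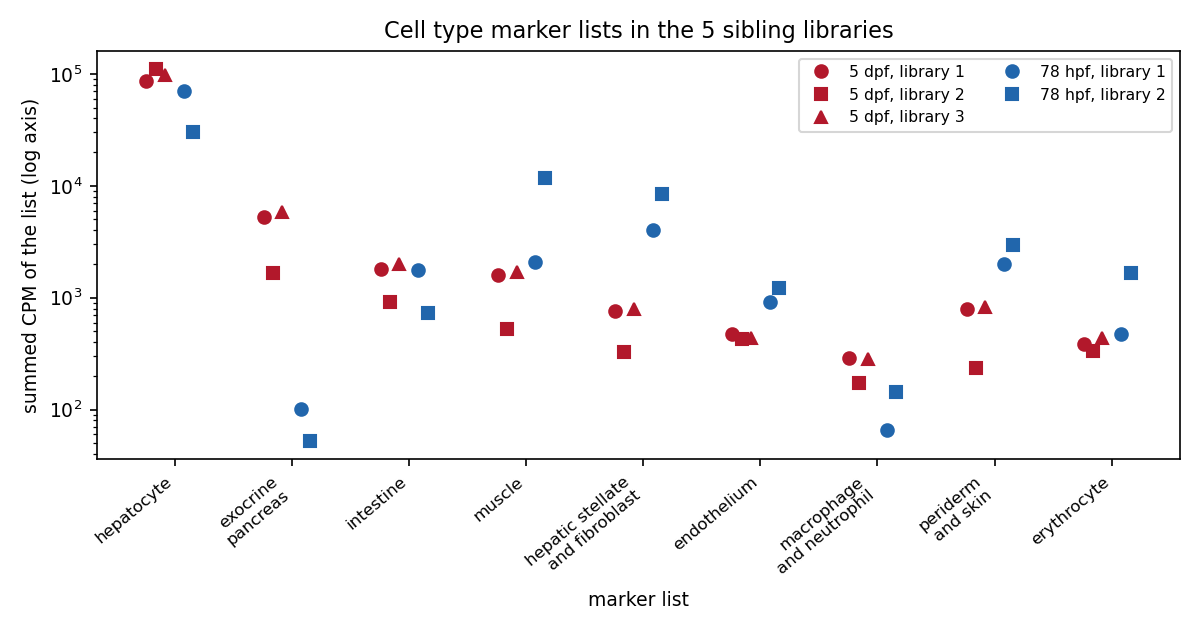
Summed CPM (log axis) of cell type marker lists in each sibling library, with 5 dpf libraries in red to the left and 78 hpf libraries in blue to the right of each list. Hepatocyte sums are the highest in all 5 libraries, exocrine pancreas sums lie between 1676 and 5808 at 5 dpf and at 52.6 and 100.5 at 78 hpf, and library 2 of 78 hpf holds the most muscle RNA.

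Of the 20126 genes tested, 3605 were higher (17.9%) and 3236 lower (16.1%) at 5 dpf than at 78 hpf at an adjusted p under 0.05 in edgeR. The libraries of the ages did not overlap for 63.8% of the genes tested. A large shift, meaning also a log2 fold change of at least 2 in size and libraries that do not overlap between the ages, was found for 2225 genes higher (11.1%) and 911 lower (4.53%) at 5 dpf. Among protein-coding genes, 1359 of 16907 were higher and 831 lower by this rule. With library size alone in place of TMM, 1768 genes were higher and 5500 lower, so that the share of higher genes was 24.3% in place of 52.7%. With the libraries titled sibling, 4282 genes were higher and 3823 lower (21.4% and 19.1% of 20030). Of the 6841 genes called here, 5542 were called in the same direction there and 12 in the opposite one. Both comparisons used the same 5 dpf libraries and held the same difference in RNA selection and hour, so this overlap is not an independent check. The number called depended on the libraries: it was 3182 without library 1, 7888 without library 2 and 3420 without library 3 of 5 dpf, and 6017 without library 1 and 4004 without library 2 of 78 hpf. Some of the moves of the counts of lists are given with each list, but not all of them.

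Ranks within a library do not depend on scaling between libraries. Of the 16907 protein-coding genes ranked, 1547 stood at least 20 percentile points higher (9.15%) and 1476 at least 20 points lower (8.73%) at 5 dpf, with no overlap between the ages. The shifts are given as a description, without a test. Of the lists, 54 of 73 cell cycle genes stood at least 20 points lower and none higher, with a median shift of −33.4 points, and 24 of 68 cytochrome P450 and drug metabolism genes stood higher and 4 lower, with a median of 12.5 points. Exocrine pancreas genes had a median shift of 57.9 points, with 18 of 20 higher. Cytosolic ribosomal proteins had a median shift of −0.53 points with none of 81 past 20 points. They stood near the top of the ranks, where a large change in level moves the rank little. Mitochondrially encoded genes, with a median log2 fold change of −2.17, likewise had a median shift of −0.61 points and 0 genes past 20 points. For such abundant genes the rank shift does not show whether the level changed.

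**Figure D3:**
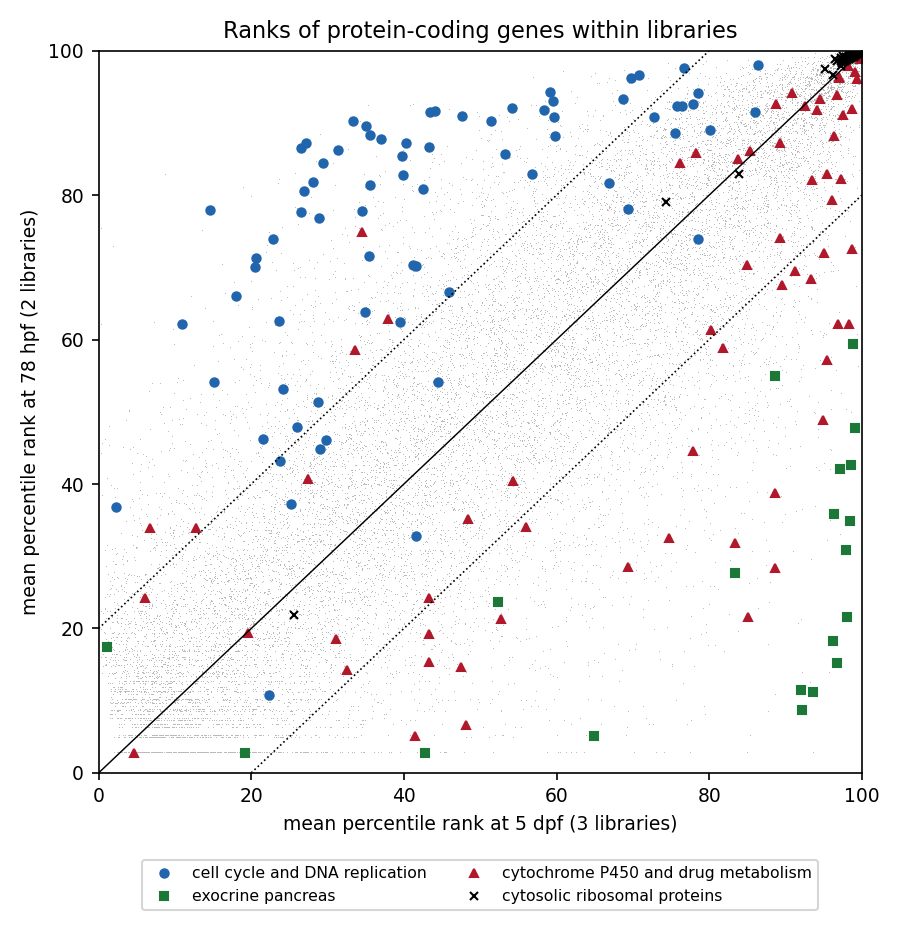
Mean percentile rank by CPM of each protein-coding gene, with the rank at 5 dpf (3 libraries) on the horizontal axis, the rank at 78 hpf (2 libraries) on the vertical axis, and 4 lists coloured. The solid line marks equal rank and the dotted lines a shift of 20 points. Most cell cycle genes lie above the lines (lower at 5 dpf), most exocrine pancreas genes below them (higher at 5 dpf), and most ribosomal proteins near the diagonal at the top right.

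Most genes of the cell cycle list were lower at 5 dpf. Of 73 genes tested, 66 fell and none rose at 5 dpf, 48 of them as large shifts, against 16.1% of all genes that fell. The median log2 fold change was −2.87, −3.49 with library size alone and −3.18 with the libraries titled sibling, where 66 also fell. With 1 library left out, the median lay between −3.03 and −2.60 and the number that fell between 51 (without library 1 of 5 dpf) and 65. CDK1, the kinase that drives entry into mitosis, had 3.46, 2.00 and 3.21 normalised CPM at 5 dpf, against 52.7 and 62.8 at 78 hpf. Its log2 fold change was −4.31 ± 0.29 (SE, edgeR adjusted p = 0.00122). CCNB1, the cyclin that binds it, had 4.45, 1.43 and 3.96 at 5 dpf, against 45.3 and 66.3 at 78 hpf (log2 fold change −4.07 ± 0.47, adjusted p = 0.00314). Every 5 dpf library lay far below both 78 hpf libraries for these 2 genes.

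Further genes of the list fell as well. bub1, a checkpoint kinase at the kinetochore, had 3.30, 0.716 and 2.65 normalised CPM at 5 dpf, against 44.2 and 44.0 at 78 hpf. aurka, a kinase of the spindle poles, had 1.41, 0.358 and 1.25 at 5 dpf, against 29.5 and 21.6 at 78 hpf, the largest fall of the list (log2 fold change −4.61 ± 0.49, adjusted p = 0.00251). tacc3, a spindle protein outside the list, fell by 4.18 on the log2 scale. PCNA, the sliding clamp of DNA polymerase, had 41.6, 31.1 and 47.9 normalised CPM at 5 dpf, against 242 and 299 at 78 hpf (log2 fold change −2.75 ± 0.30, adjusted p = 0.00267). RRM1, a subunit of ribonucleotide reductase, had 25.7, 7.44 and 21.7 at 5 dpf, against 160 and 155 at 78 hpf. TOP2A, which untangles replicated DNA, had 20.5, 7.87 and 21.3 at 5 dpf, against 144 and 144 at 78 hpf, and the proliferation marker mki67 had 27.3, 13.7 and 25.9, against 214 and 231. Library 2 was the lowest 5 dpf library for all of these genes, and it was also the one with the least RNA of other tissues. With library 2 as the only 5 dpf library, a design of 1 against 2 libraries chosen after seeing the data, the median of the list was −3.62. That fit kept the 78 hpf libraries as they were, and the part of other tissues was not tested.

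Part of the list named fetal and growth RNA binding factors, and of the nucleolus genes, fell too. Of 27 genes of the growth list, 14 fell and 1 rose (median −1.95), against 16.1% and 17.9% of all genes. With the libraries titled sibling 16 fell and 2 rose (median −1.92). hmga1a, an architectural chromatin protein of embryonic cells, had 94.1, 93.7 and 90.3 normalised CPM at 5 dpf, against 829 and 1107 at 78 hpf (log2 fold change −3.38 ± 0.32, adjusted p = 0.00204). hmgb2b, another high mobility group protein, had 9.43, 7.16 and 9.57, against 121 and 179. The cold-inducible RNA-binding protein cirbpb (218, 247 and 215 at 5 dpf, against 756 and 998) and the actin-binding tmsb4x (120, 131 and 132, against 503 and 791) fell less. All 4 of these genes varied less between the 5 dpf libraries than between the 78 hpf libraries, and none overlapped between the ages.

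Of 39 nucleolus and ribosome biogenesis genes, 25 fell and none rose, with a median of −1.15, against 16.1% of all genes that fell. The number that fell was 12 without library 1 and 11 without library 3 of 5 dpf, 12 without library 2 of 78 hpf, 33 with library size alone (median −1.92) and 28 with the libraries titled sibling (median −1.47). FBL, the methyltransferase fibrillarin that modifies ribosomal RNA, had 20.1, 32.9 and 20.5 normalised CPM at 5 dpf, against 147 and 185 at 78 hpf (log2 fold change −2.76 ± 0.32, adjusted p = 0.00306). GAR1, a protein of the particles that pseudouridylate RNA, had 5.19, 7.16 and 4.61, against 60.0 and 78.7, and npm1a, nucleophosmin, had 48.1, 119 and 51.6, against 272 and 422. The helicase DDX21 was an exception, with 118, 181 and 118 at 5 dpf against 78.5 and 95.7 at 78 hpf, a log2 fold change of 0.67 that missed the threshold and was −0.06 with library size alone. Cytosolic ribosomal proteins themselves had a median of −0.43, with 3 of 81 called, all lower: RPL26, RPL22 and RPL37. RPLP0, the ribosomal protein with the highest level, had 2177, 3562 and 2297 normalised CPM at 5 dpf and 3072 and 2887 at 78 hpf. With library size alone 79 of the 81 were called lower, with a median of −1.15, so the calls of this list depend on the scaling. With the libraries titled sibling 19 were lower, and without library 2 of 5 dpf 17.

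**Figure D4:**
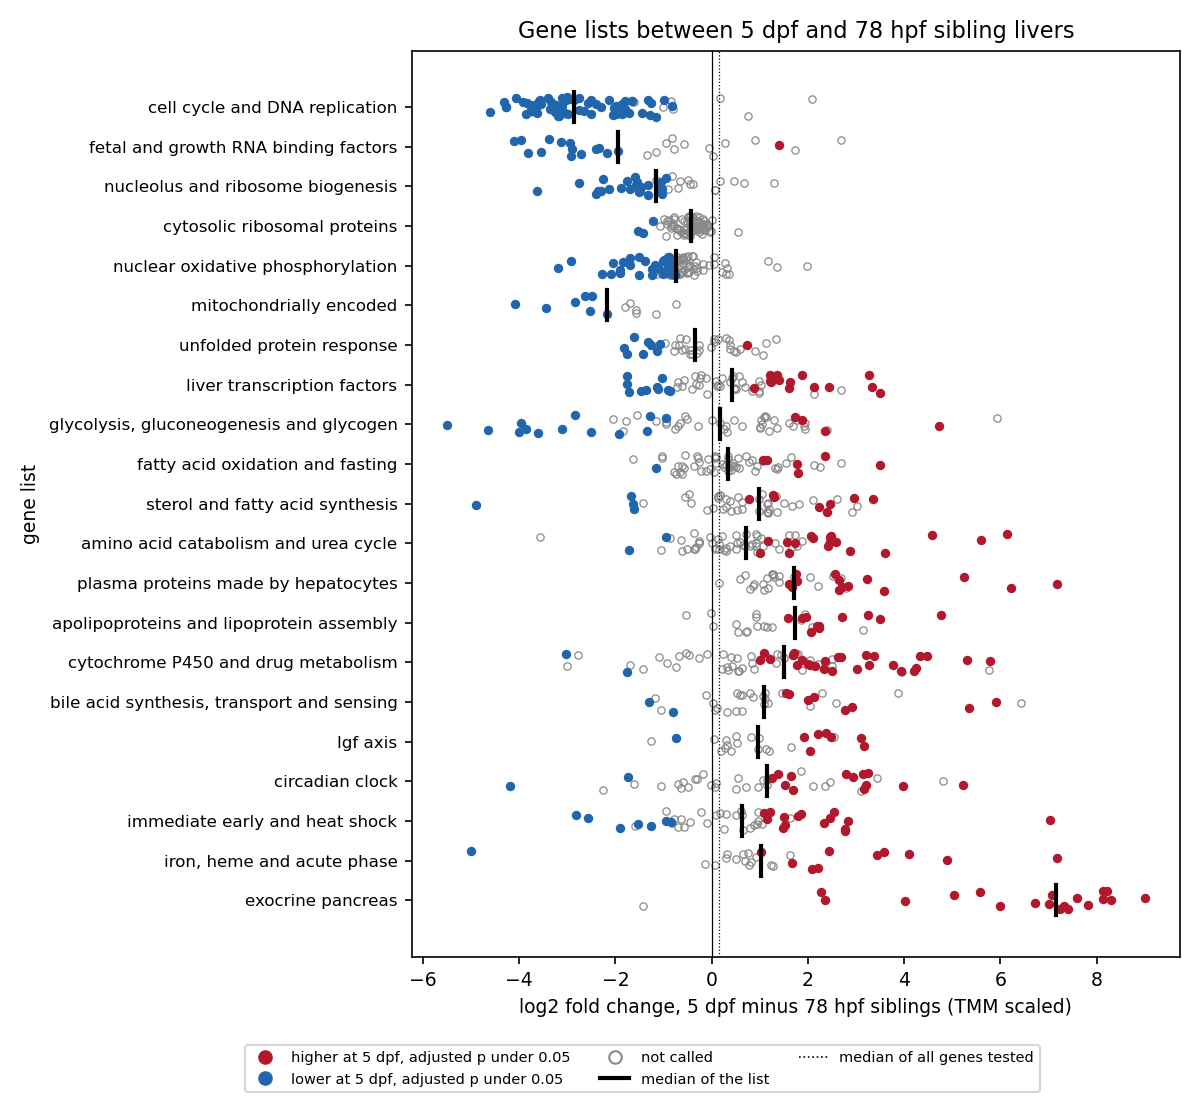
Log2 fold change (5 dpf minus 78 hpf, TMM scaled) of every tested gene of 21 lists, filled where called at an adjusted p under 0.05, with a black bar at each list's median and a dotted line at the median of all genes (0.15). Cell cycle genes centre at −2.87, apolipoproteins at 1.72 and exocrine pancreas genes at 7.16. Fitted values of genes without a count at 78 hpf depend on the prior count.

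Part of the lipoprotein mRNAs rose at 5 dpf. Of 28 genes of apolipoproteins and lipoprotein assembly, 11 rose and none fell, against 17.9% of all genes that rose, with a median log2 fold change of 1.72 (1.105 with library size alone, 2.104 with the libraries titled sibling, and 2.63 without library 1 of 78 hpf). The number that rose was 6 without library 1 and 7 without library 3 of 5 dpf, 6 without library 2 of 78 hpf, and 21 with the libraries titled sibling, where 1 fell. apobb.1, one of the zebrafish genes for apolipoprotein B, the structural protein of the very low density lipoprotein, had 25615, 28654 and 24529 normalised CPM at 5 dpf, against 1442 and 481 at 78 hpf. Its log2 fold change was 4.77 ± 0.93 (adjusted p = 0.0124), and no other gene of this list that rose had a higher level at 5 dpf. APOB, a further apolipoprotein B gene, had 4117, 9893 and 3984 at 5 dpf, against 743 and 323 at 78 hpf (log2 fold change 3.49 ± 0.79, adjusted p = 0.0195). apoc1 had 4222, 9137 and 4496, against 1083 and 167, where the 78 hpf libraries differed widely. The most abundant members, apoa1b (50474, 94312 and 53794 at 5 dpf, against 28622 and 7750) and apoa2 (27755, 57080 and 33491, against 16250 and 4317), did not overlap between the ages but missed the threshold (adjusted p = 0.201 and 0.162).

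Among plasma proteins the calls were also in 1 direction, with 14 of 37 genes higher, none lower and a median of 1.71 (1.03 with library size alone), against 17.9% of all genes that rose. Single libraries decided many of these calls: 3 genes were higher without library 1 of 5 dpf, 3 without library 3 of 5 dpf, 3 without library 2 of 78 hpf and 27 without library 1 of 78 hpf. With the libraries titled sibling 30 were higher and none lower (median 1.69). RBP4, the retinol carrier, had 8421, 6585 and 9774 normalised CPM at 5 dpf, against 2174 and 637 at 78 hpf (log2 fold change 2.56 ± 0.75, adjusted p = 0.043). itih3b.1, a heavy chain of the inter-alpha-trypsin inhibitor, had 865, 1466 and 971, against 26.3 and 3.22, a log2 fold change of 6.22 ± 1.07 (adjusted p = 0.00876). ahsg1, a fetuin, had 102, 412 and 96.1, against 7.99 and 2.66. hp, haptoglobin, had 44.9, 1.79 and 49.7 at 5 dpf, against 0.145 and 0.280 at 78 hpf, so that library 2 lay far below the other 5 dpf libraries. Other abundant hepatocyte genes missed the threshold. tfa, transferrin, had 26011, 58477 and 29755 at 5 dpf, against 22118 and 9491 (adjusted p = 0.295), and fetub had 7485, 12662 and 5904, against 2554 and 448 (adjusted p = 0.0792). fabp10a, the liver fatty acid binding protein whose promoter drives the transgenes of this line, had 6201, 15102 and 7177, against 3678 and 914 (log2 fold change 2.05 ± 0.87, adjusted p = 0.112). Library 2 of 78 hpf was the lower one for each of these 3 genes, as it was for the hepatocyte list as a whole.

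**Figure D5:**
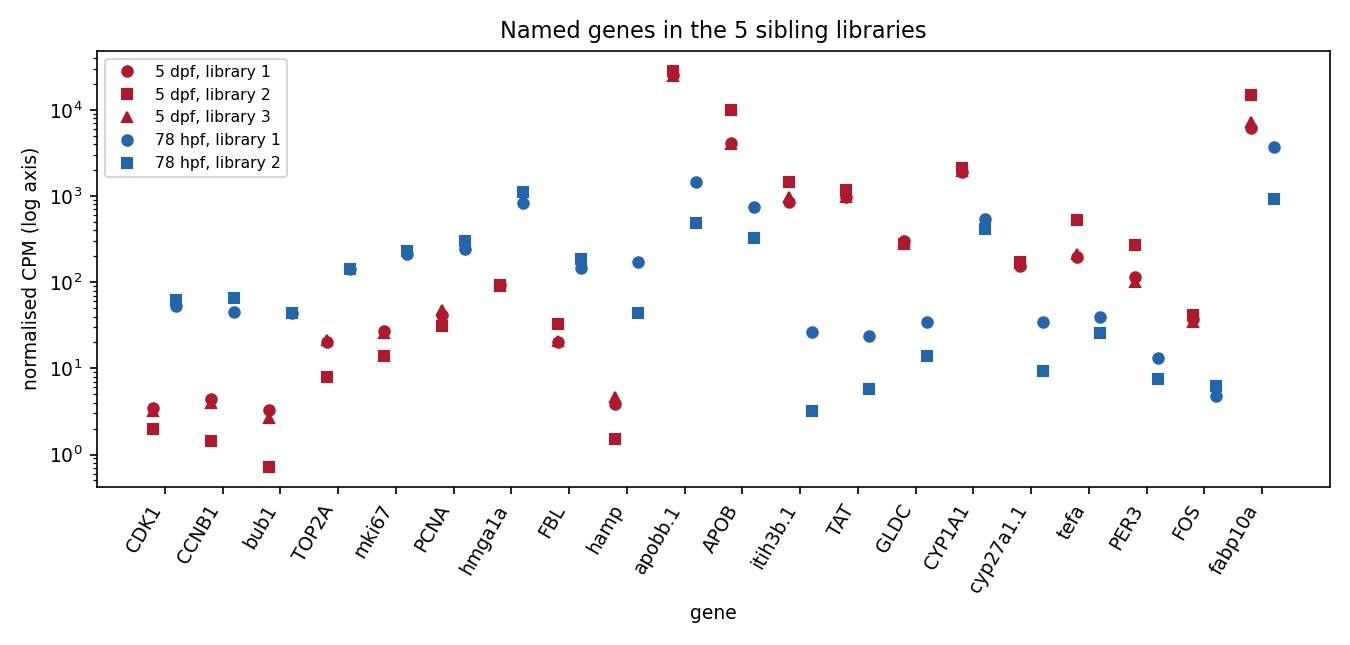
Normalised CPM (log axis) of 20 named genes in each sibling library, with the 3 libraries of 5 dpf in red to the left and the 2 of 78 hpf in blue to the right of each gene. The cell cycle genes, hmga1a, FBL and hamp lie lower at 5 dpf, apobb.1 to FOS higher, and no gene shown overlaps between the ages. fabp10a is the one gene shown that missed the threshold.

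Enzymes that break down amino acids rose in 17 of 67 cases and fell in 2, against 17.9% and 16.1% of all genes. With library size alone 15 rose and 11 fell, with the libraries titled sibling 20 rose and 6 fell, and without library 2 of 78 hpf 9 rose and 1 fell. The median of 0.71 was 0.03 with library size alone, 1.42 without library 1 and 0.42 without library 2 of 78 hpf. TAT, the tyrosine aminotransferase, had 969, 1192 and 968 normalised CPM at 5 dpf, against 23.7 and 5.74 at 78 hpf (log2 fold change 6.15 ± 0.80, adjusted p = 0.00405, and 7.36 with the libraries titled sibling). In percentile rank it stood 38.8 points higher. GLDC, of the glycine cleavage system, had 302, 281 and 298, against 34.7 and 13.9 (log2 fold change 3.59 ± 0.49, adjusted p = 0.00468). tdo2b, a tryptophan dioxygenase, had 155, 442 and 170, against 10.5 and 0.140, and the 78 hpf libraries differed widely. BHMT, the betaine methyltransferase of the methionine cycle, had 2149, 1887 and 2431 at 5 dpf and 4313 and 2346 at 78 hpf, ranges that overlap. With library size alone they did not overlap, and every 5 dpf library lay below the 78 hpf libraries.

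Cytochrome P450 and other enzymes of drug metabolism had 28 of 69 genes higher and 2 lower, with a median of 1.496 (1.45 with the 1 member without a count at 78 hpf at its lower bound, 0.88 with library size alone, where 10 were lower, and 2.29 without library 1 of 78 hpf), against 17.9% of all genes that rose. The number higher was 13 without library 1 and 15 without library 3 of 5 dpf, 15 without library 2 of 78 hpf, and 39 with the libraries titled sibling, where 5 were lower. cyp2y3 had 982, 1052 and 1076 normalised CPM at 5 dpf, against 245 and 92.6 at 78 hpf (log2 fold change 2.62 ± 0.53, adjusted p = 0.0143). CYP1A1, the enzyme induced through the aryl hydrocarbon receptor, had 1912, 2132 and 1964, against 547 and 420 (log2 fold change 2.05 ± 0.41, adjusted p = 0.0136). In the nAtf6 livers of both ages its log2 fold change was −0.11. ugt5a1, a glucuronosyltransferase, had 37.1, 39.7 and 29.6, against 2.91 and 0.280, and cyp2n13 had 261, 926 and 278, against 44.2 and 4.06. ces2a, a carboxylesterase, had 5722, 7388 and 6109, against 1848 and 426, and missed the threshold (adjusted p = 0.0513).

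In the synthesis, transport and sensing of bile acids, 8 of 35 genes rose and 2 fell (median 1.08, or 0.85 with the 2 members without a count at 78 hpf at their lower bounds). The share that rose is near the 17.9% of all genes. The median was 1.83 without library 1 and 0.56 without library 2 of 78 hpf. Only 3 genes rose without library 1 or without library 3 of 5 dpf, and 3 without library 2 of 78 hpf, against 15 with the libraries titled sibling (median 1.17). cyp27a1.1, a sterol hydroxylase, had 154, 172 and 167 normalised CPM at 5 dpf, against 34.4 and 9.25 at 78 hpf (log2 fold change 2.91 ± 0.59, adjusted p = 0.0141). CYP7A1, the rate-limiting enzyme of bile acid synthesis, had 28.4, 231 and 31.1, against 4.36 and 0.420 (log2 fold change 5.34 ± 1.48, adjusted p = 0.0365). ABCB11, the bile salt export pump, had 544, 1770 and 516, against 233 and 82.4 (adjusted p = 0.0522), and FGF19, a hormone that represses bile acid synthesis in mammals, had 30.6, 455 and 35.8, against 19.5 and 4.34 (adjusted p = 0.0961). For CYP7A1, ABCB11 and FGF19, library 2 of 5 dpf stood far above libraries 1 and 3.

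Library 2 of 5 dpf stood out in sterol synthesis as well. In this list 8 of 49 genes rose and 4 fell, which is no more than the 17.9% and 16.1% of all genes, with a median of 0.98 that was 0.40 without library 2 of 5 dpf and 0.11 with library size alone. With the libraries titled sibling 14 rose and 4 fell, and without library 2 of 78 hpf 2 rose and 4 fell. Leaving out library 2 of 5 dpf gave 12 that rose and 9 that fell. MSMO1, an enzyme of cholesterol synthesis, had 395, 1541 and 358 normalised CPM at 5 dpf, against 178 and 75.2 at 78 hpf (adjusted p = 0.0593). The elongase ELOVL1 (ENSDARG00000099960) fell instead, with 1.89, 0.644 and 2.81, against 16.3 and 93.2. Fatty acid oxidation and fasting genes had 6 of 59 higher and 1 lower, below the 17.9% and 16.1% of all genes. Their median of 0.34 was −0.31 with library size alone, 0.83 without library 1 and 0.06 without library 2 of 78 hpf. With the libraries titled sibling 12 were higher and 7 lower, and with library size alone 3 were higher and 13 lower. Of these, the triglyceride lipase PNPLA2 had 39.3, 49.1 and 28.9, against 10.2 and 5.04 (log2 fold change 2.36 ± 0.40, adjusted p = 0.00844).

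Glycolysis, gluconeogenesis and glycogen genes moved both ways, with 4 of 55 higher and 13 lower, against 17.9% and 16.1% of all genes. The median of 0.17 was 0.01 with the 1 member without a count at 78 hpf at its lower bound, −0.52 with library size alone, 0.56 without library 1 of 78 hpf and −0.27 without library 2 of 5 dpf. GAPDHS, a glyceraldehyde phosphate dehydrogenase, had 20.8, 14.5 and 22.4 normalised CPM at 5 dpf, against 819 and 151 at 78 hpf (log2 fold change −4.65 ± 0.72, adjusted p = 0.00655). The muscle list stood in the opposite order, at 2087 and 11634 CPM in the same 78 hpf libraries. FBP2, a muscle enzyme outside that list, stood in the order of GAPDHS, at 846 and 1.44 CPM. So did acta2 of the stellate cell and fibroblast list, at 1105 and 12.5 CPM, while that list as a whole, at 4049 and 8448 CPM, did not. The part of other tissues was not tested. With the libraries titled sibling, where 9 glycolysis list genes were higher and 10 lower, GAPDHS was at −2.81. Without library 1 of 5 dpf 2 of this list were lower and 2 higher, and without library 1 of 78 hpf 11 were lower and 12 higher. Among 57 liver transcription factors, 14 rose and 10 fell, against 17.9% and 16.1% of all genes, so the share that fell is near that of all genes. Their median of 0.43 was −0.26 with library size alone, 0.69 without library 1 and 0.11 without library 2 of 78 hpf. With library size alone 5 rose and 17 fell, and with the libraries titled sibling 14 rose and 11 fell. Leaving out library 2 of 78 hpf gave 6 that rose and 3 that fell, and leaving out library 1 of 5 dpf gave 9 and 4. HNF4A, a master regulator of hepatocytes, had 93.0, 167 and 96.9 at 5 dpf and 107 and 53.4 at 78 hpf, which overlap, and NR1H3, the oxysterol receptor LXR, had 87.3, 95.9 and 87.7, against 33.7 and 15.1 (log2 fold change 1.89 ± 0.39, adjusted p = 0.0146).

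Clock genes differed between the ages, which were dissected at different hours. Of 42 genes, 13 rose and 2 fell (median 1.15), against 17.9% and 16.1% of all genes. Without library 2 of 78 hpf 4 rose and without library 1 of 5 dpf 7, and with the libraries titled sibling 16 rose and 4 fell. tefa, a PAR bZIP output factor of the clock, had 199, 525 and 210 normalised CPM at 5 dpf, against 39.7 and 25.6 at 78 hpf (log2 fold change 3.25 ± 0.60, adjusted p = 0.0108). PER3, a repressor of the clock, had 115, 273 and 101, against 13.2 and 7.57 (log2 fold change 3.97 ± 0.62, adjusted p = 0.00674). dbpb, another PAR bZIP factor, had 16.2, 166 and 17.9, against 1.16 and 2.38. nfil3-5, of the family that opposes these factors, ran the other way with 2.99, 0.501 and 3.41, against 34.0 and 51.6 (log2 fold change −4.18 ± 0.66, adjusted p = 0.00663). PER2 (134, 401 and 118, against 61.5 and 23.8, adjusted p = 0.0518) and NR1D1 (19.8, 137 and 17.2, against 13.5 and 0, adjusted p = 0.183) missed the threshold. Library 2 of 5 dpf was the highest for each of these genes that was higher and the lowest for nfil3-5, so the 5 dpf pools were themselves not alike in clock RNA. Age and hour of dissection cannot be told apart here.

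Immediate early and heat shock genes had 15 of 47 higher and 7 lower, against 17.9% and 16.1% of all genes. Their median was 0.64, or 0.61 with the 1 member without a count at 78 hpf at its lower bound. With library size alone it was −0.03, and 6 were higher and 13 lower. Without library 2 of 78 hpf 6 were higher and 5 lower, and with the libraries titled sibling 23 were higher and 6 lower. Leaving out library 1 or library 3 of 5 dpf gave 7 higher and 3 lower. FOS, a transcription factor induced within minutes of stimulation, had 37.9, 41.6 and 34.4 normalised CPM at 5 dpf, against 4.79 and 6.30 at 78 hpf (log2 fold change 2.77 ± 0.24, adjusted p = 0.00166). egr1 had 216, 242 and 162, against 74.5 and 45.0. The small heat shock protein HSPB1 fell, with 4.61, 2.43 and 4.61, against 24.4 and 30.8. In the Igf axis, 7 of 24 genes rose and 1 fell, against 17.9% and 16.1% of all genes. Its median of 0.97 was 0.22 with library size alone, and with the libraries titled sibling 13 of 22 rose and none fell. IRS2 (ENSDARG00000037099), an adaptor of insulin receptor signalling, had 56.4, 100.4 and 51.3, against 10.6 and 4.76 (log2 fold change 3.17 ± 0.51, adjusted p = 0.00708). IGFBP1, a binding protein induced by fasting, had 464, 528 and 486 at 5 dpf and 588 and 215 at 78 hpf, with overlap.

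Iron and acute phase genes had 10 of 25 higher and 1 lower, against 17.9% and 16.1% of all genes. The number higher was 3 without library 1 or without library 3 of 5 dpf and 13 with the libraries titled sibling. The one that fell was hamp, hepcidin, the liver hormone that lowers iron export, with 3.88, 1.503 and 4.61 normalised CPM at 5 dpf, against 171 and 44.3 at 78 hpf. Its log2 fold change was −4.99 ± 0.71 (adjusted p = 0.00518), −6.95 with the libraries titled sibling and −3.03 in the nAtf6 livers of both ages. SLC40A1, the iron exporter ferroportin on which hepcidin acts, had 220, 218 and 212 at 5 dpf, against 38.1 and 41.9 (log2 fold change 2.44 ± 0.27, adjusted p = 0.00281). ALAS1, which starts heme synthesis, had 513, 1047 and 488, against 230 and 93.3, and CP, ceruloplasmin, had 813, 1106 and 841, against 365 and 210.

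Of 38 genes of the unfolded protein response, 8 were lower and 1 higher in 5 dpf siblings, with none as a large shift, and the share that was lower is near the 16.1% of all genes. The median of −0.35 was 0.15 without library 1 and −0.71 without library 2 of 78 hpf. Without library 1 or without library 3 of 5 dpf 2 were lower, and with library size alone 22 were lower with a median of −1.01. HSPA5 had 435, 295 and 373 normalised CPM at 5 dpf, against 1721 and 878 at 78 hpf (log2 fold change −1.82 ± 0.43, adjusted p = 0.0224). PDIA6, a protein disulfide isomerase, had 28.4, 43.4 and 22.3, against 153.3 and 58.3, and atf4b, a transcription factor of the integrated stress response, had 32.2, 37.9 and 27.2, against 90.4 and 107. With the 78 hpf libraries titled sibling, 27 genes were lower, none higher and the median was −2.19. HSP90B1 was −1.43 here (adjusted p = 0.0457) and −4.40 with the titled libraries. atf6 itself had 106, 117 and 90.9 at 5 dpf, against 67.3 and 33.1 (log2 fold change 1.06 ± 0.37, adjusted p = 0.0674).

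Respiratory chain genes that were called stood lower at 5 dpf. Of 90 nuclear genes, 29 fell and none rose (median −0.73, −1.40 with library size alone, where 78 fell), against 16.1% of all genes. Without library 1 of 5 dpf 11 fell, without library 2 of 5 dpf 53, and with the libraries titled sibling 61 fell and 1 rose. Of 13 mitochondrially encoded genes, 7 fell and none rose (median −2.17). The number that fell was 3 without library 1 or without library 3 of 5 dpf, 12 without library 2 of 5 dpf, 13 with library size alone and 8 with the libraries titled sibling. MT-CO1, the gene of this group with the highest level, had 8243, 12399 and 5859 normalised CPM at 5 dpf, against 26875 and 30166 at 78 hpf, and missed the threshold (adjusted p = 0.0985). MT-ND2 had 379, 516 and 221, against 6022 and 6644 (log2 fold change −4.09 ± 0.55, adjusted p = 0.00445), and MT-ATP6 had 995, 1699 and 560, against 11664 and 11934. RNA selection differed between the same libraries, and its part in these levels was not tested. atp5if1a, the nuclear-encoded inhibitor of the ATP synthase, had 6.23, 7.95 and 7.36, against 39.5 and 69.8 (log2 fold change −2.93 ± 0.29, adjusted p = 0.00226).

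The 15 genes with the largest rise also had to rise by at least 2 on the log2 scale with the libraries titled sibling, without a call there. Among them were several digestive enzymes. amy2a, pancreatic amylase, had 481, 210 and 533 normalised CPM at 5 dpf, against 2.47 and 0.420 at 78 hpf. In the libraries titled sibling it had 5.98 and 202 CPM, which overlap the 457, 131 and 505 CPM of 5 dpf. All exocrine pancreas calls, 19 of 20 genes, were higher, against 17.9% of all genes that rose. With the libraries titled sibling only 1 was called. The median there was 0.63 in place of 7.16 (6.87 with the 2 genes without a count at 78 hpf at their lower bounds). Those 2 genes passed the filter on low counts through the 5 dpf libraries alone. prss59.2, a trypsin, had 1133, 484 and 1330, against 11.0 and 3.503. One of the titled libraries alone held 8084 CPM of this list, against 279 CPM in the other. Outside the exocrine pancreas list, KLHL26 had 69.5, 60.5 and 67.0, against 1.02 and 1.12 (log2 fold change 5.93 ± 0.28, adjusted p = 0.00116), with the smallest error of the 15. UPP2, a uridine phosphorylase, had 113, 52.9 and 129, against 1.16 and 0, and vtg7, a vitellogenin, had 578, 61.6 and 545, against 5.38 and 1.68. APOD (ENSDARG00000060350), a lipocalin, had 4173, 997 and 4778, against 38.6 and 29.8, and LCT (ENSDARG00000092404), lactase, had 133, 5.01 and 145, against 0.581 and 0. For vtg7, APOD and LCT, libraries 1 and 3 lay far above library 2.

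Several of the 15 largest falls rested on 1 library of 78 hpf. FBP2, a muscle form of fructose bisphosphatase, had 0.629, 0.573 and 0.902 normalised CPM at 5 dpf, against 705 and 0.981 at 78 hpf, and its log2 fold change of −8.94 was −0.47 without library 1 of 78 hpf. and2, an actinodin of the larval fin fold, had 1.31, 3.51 and 1.00, against 4.50 and 1881, and was −1.24 without library 2 of 78 hpf. col1a1a, a fibrillar collagen, had 63.1, 51.5 and 68.6, against 318 and 3697. Of the stellate and muscle genes outside these 15, acta2, a smooth muscle actin, had 14.7, 4.295 and 14.7, against 920 and 8.55, which overlap, and its log2 fold change of −5.36 was 0.40 without library 1 of 78 hpf. Of 27 muscle genes, 7 were lower and 1 higher (median −1.92), against 16.1% and 17.9% of all genes. With the libraries titled sibling, in contrast, none was lower and 5 were higher (median 0.86). Without library 2 of 78 hpf 4 were lower and 7 higher (median −0.39). MYL1 (ENSDARG00000014196), a muscle myosin light chain, had 15.8, 5.94 and 18.7, against 131 and 241, and anxa1c, of the skin list, had 4.296, 0.358 and 4.76, against 21.07 and 95.3. Of the stellate cell and fibroblast list, 15 of 25 genes were lower and 1 higher, against 16.1% and 17.9% of all genes. The number lower was 5 without library 1 of 5 dpf and 6 with the libraries titled sibling.

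Of 25 endothelial genes, 13 were lower and 1 higher at 5 dpf (median −1.11), against 16.1% and 17.9% of all genes. With the libraries titled sibling 12 were lower and 3 higher. Among those that fell were etsrp, an early transcription factor of the lineage, with 5.50, 9.52 and 5.81 normalised CPM against 23.0 and 35.7 (log2 fold change −2.08 ± 0.33, adjusted p = 0.00692), and ESAM, an adhesion molecule of endothelial junctions, with 5.92, 8.80 and 5.56 against 25.3 and 29.7. kdrl, the main endothelial receptor for vascular growth factor, had 126, 189 and 120 at 5 dpf and 168 and 162 at 78 hpf, with overlap. That overlap depended on TMM: with library size alone every 5 dpf library lay below the 78 hpf libraries for kdrl. Of 26 macrophage and neutrophil genes, 5 were higher and none lower, a share near the 17.9% of all genes, and the median of the list was −0.09 with a median rank shift of −4.96 points. The median was −0.83 without library 1 and 1.38 without library 2 of 78 hpf, and with the libraries titled sibling 6 were higher and the median was 0.59. Both genes that follow rose. spi1a, a transcription factor of myeloid cells, had 13.9, 18.6 and 11.8 at 5 dpf, against 0.291 and 0.841 at 78 hpf (log2 fold change 4.68 ± 0.48, adjusted p = 0.00235), and csf1rb, a receptor of macrophages, had 8.12, 8.30 and 6.01, against 0 and 0.560. The counts of spi1a and csf1rb at 78 hpf are at or near 3 per library, so the size of these shifts is not well set. The same limit applies to CYP7A1, tdo2b, ugt5a1, hp, amy2a, UPP2 and LCT above. Each had under 0.436 normalised CPM, about 3 counts, in at least 1 library of 78 hpf.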

How the data were processed

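Pooled liver RNA was sequenced, and gene-level counts were used as deposited by the authors. The submitters' processing notes name GRCz10, FastQC 0.11.5, Trimmomatic, TopHat2 2.1.0, HTSeq, DESeq2, CASAVA and MultiQC 1.7. The 5 entries of reads not assigned to a gene, 38.0% and 47.4% of the entries' and genes' total in the 78 hpf siblings, were left out. There were 0 columns without a sample.

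Counts were fitted in edgeR 4.0.16 (R 4.3.3, filterByExpr, TMM, quasi-likelihood test, Benjamini-Hochberg adjustment over 20126 genes, threshold 0.05). The p-values measure the spread between pools of separate clutches, 3 at 5 dpf and 2 at 78 hpf. edgeR gives no SE for this test. The SE shown is the size of the log2 fold change divided by the square root of the F statistic. Fits were checked on simulated data, in which few genes changed, so that check could not test the assumption of TMM for these libraries. With 3 against 2 libraries, a gene that missed the threshold is not shown to be unchanged. Percentile ranks among protein-coding genes used Python 3.11.15 with pandas 2.3.3, numpy 2.4.6 and scipy 1.17.1. At 10 CPM the exact 95% counting interval was 8.67 to 11.5 CPM in 5 dpf library 1 and 7.45 to 13.3 CPM in 78 hpf library 2, and such intervals and floors cover counting error only.

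Named genes were the 15 largest rises and the 15 largest falls (protein-coding, log2 fold change of at least 2 with either set of 78 hpf libraries, at least 50 CPM, no overlap), the 4 highest members and the 3 largest changes (at least 20 CPM) of each of 33 lists, the 10 largest rank rises and falls, the 10 highest genes per age and a set of label and growth genes. The text describes a selection of them, and some are not reported here. Members and lists were chosen with earlier results of these data known. Symbols shared by several identifiers carry the identifier, and such counts are uncertain. Alternatives covered scaling, filters, DESeq2 1.42.0, limma 3.58.1, depth, the choice of 78 hpf libraries and left-out libraries.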

Additional observations from a re-analysis of the deposited data

How the results depend on the processing

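Of 6841 genes called, leaving out 1 library gave between 3182 and 7888, and of the 3148 that also changed by 2 or more on the log2 scale, between 1799 and 3521. Testing against a log2 change of 1 (glmTreat) called 2569 genes, and a minimum of 10 counts in every library left 1171 of the larger changes, among fewer genes tested. With library 2 as the only 5 dpf library, a design of 1 against 2 libraries chosen after seeing the data that says nothing about stability, 0 genes passed in edgeR, 0 of them with a larger change, against 4866 at an unadjusted p under 0.05. Libraries of equal replicate number had r = −0.0979 and −0.115 in their deviations from the age means. With 2 libraries at 78 hpf, unequal numbers have the same values with the opposite sign, so this cannot show whether the numbers pair the libraries. With the replicate number as a block 1998 genes were called, 1640 with a larger change. The count of genes shifted by 20 rank points stayed within 1.5 times of 3023 under every alternative run.

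Of 100 named genes, not all tested in every alternative, 90 kept their direction under every alternative that tested them. As many as 0 kept both direction and side of the threshold under all of them, a set that includes the fit with 5 dpf library 2 alone. Called genes lost their call in 23 cases without 5 dpf library 1, 23 without 5 dpf library 3, 6 without 5 dpf library 2, 9 without 78 hpf library 1, 19 without 78 hpf library 2 and 38 with the block. In the nAtf6 livers of both ages the log2 fold change of CYP1A1 was −0.11, of HNF4A −0.21, of HSP90B1 0.20, of kdrl 0.23 and of prss59.2 −1.49. With library size alone, chosen after seeing the data, DDX21 was at −0.0597, HNF4A at −0.12 and IGFBP1 at −0.31. With the libraries titled sibling, atf6 was at −1.06 and kdrl at 0.35. RPLP0 was at 0.015 with the minimum of 10 counts and, with 5 dpf library 2 alone, at 0.37, where kdrl was at 0.31. With 1 library left out, IGFBP1 ran between −0.26 (without 78 hpf library 2) and 1.198, and acta2 between −6.36 and 0.40 (without 78 hpf library 1). The causes were not tested. Ranks by coding length were not run.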
